A study of Mus musculus with 86 samples.

Results

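Bile duct ligation (BDL), the surgical closure of the common bile duct, was carried out in mice labelled Mertk knockout and in wild-type mice, and the ligated livers of both were compared by RNA-seq. The comparison holds 8 libraries of the 86 in the series, chosen by their titles: BDL KO 1 to 4, from ligated liver with the genotype label Mertk knockout, and BDL WT 1 to 4, from ligated liver with the label wild type. The 8 libraries of sham-operated liver, sham KO 1 to 4 and sham WT 1 to 4, were used to estimate the spread and to set the comparison beside unligated liver. The labels give no age, sex or strain, name no allele of Mertk and no days after surgery, and call the libraries biological replicates without tying one to an animal. The p-values below therefore measure the spread between these libraries, pooled over ligated and sham liver, which may be in part technical. The spread was narrower in the sham groups than in the ligated groups. With the ligated libraries alone, 0 genes had an adjusted p under 0.05 by edgeR's quasi-likelihood test.

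MERTK is a receptor tyrosine kinase of the TAM family (TYRO3, AXL and MERTK) that macrophages use to recognise and engulf dying cells through the bridging ligands GAS6 and protein S. In liver it is carried mainly by Kupffer cells, the resident macrophages, and by monocyte-derived macrophages. Ligation of the bile duct holds bile back in the liver, where hepatocytes switch off bile acid synthesis and uptake, bile duct cells multiply, macrophages gather, and stellate cells and portal fibroblasts turn into matrix-producing myofibroblasts. The question of the comparison, from the series title and design, was how loss of Mertk changes the scarring liver.

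Levels are CPM, read counts of a gene scaled to the size of its library with TMM factors, which set libraries to a common composition, and are listed for libraries 1, 2, 3 and 4 of each group in that order. Changes are log2 fold changes ± SE of BDL KO over BDL WT from edgeR's quasi-likelihood test, written "log2", with p-values adjusted by Benjamini-Hochberg over 13492 genes. A gene rose or fell where the adjusted p was under 0.05. Of all genes tested 2.67% rose and 1.72% fell, and the counts of calls in gene lists below are to be read beside these shares. A single call in a list does not set that list apart from all genes. In a whole-tissue library, fewer cells of a type and less RNA per cell cannot be told apart.

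BDL KO 1 held 23352846 reads in genes, and the 15 other liver libraries held 14500094 to 17138203. BDL KO 1, BDL KO 3 and BDL WT 3 stood apart from the others. The 10 most abundant genes took 25.6% and 28.3% of the reads of BDL KO 1 and BDL KO 3, and 14.5% to 20.9% in the other liver libraries. The TMM factors of these libraries were 0.696 and 0.748, and that of BDL WT 3 was 1.39. On the second principal component of the 16 liver libraries, with 20.2% of the variance, BDL KO 1 and BDL KO 3 lay at 83.4 and 87.9 and BDL WT 3 at -85.5. BDL KO 2 was nearest to a wild-type library, with a Spearman correlation across genes of 0.986 with BDL WT 1. The submitters' notes record 1 bad fastq file for BDL KO 1, BDL KO 3 and sham WT 3, and 2 such files for sham WT 4. The hepatocyte gene Alb, for albumin, ranged over 58719 to 91842 CPM in BDL KO and over 34839 to 56538 CPM in BDL WT. Apoa1, given below, was separate as well, but the hepatocyte markers Ttr and Hnf4a overlapped between groups. Ttr was at 3639, 2632, 1311 and 3320 CPM in BDL KO, against 2157, 2218, 1523 and 1810 CPM in BDL WT. Hnf4a was at 1169, 588, 932 and 511 CPM in BDL KO, against 612, 461, 306 and 951 CPM in BDL WT. Kap and Cpa1, which mark kidney and pancreas, were at 0 in all 8 ligated libraries, as was the muscle gene Ckm, while the pancreas and gut markers Cela1 and Fabp2 were at 2.64 to 4.91 and 19.3 to 46.2 CPM in BDL KO, against 3.42 to 5.37 and 9.11 to 22.2 CPM in BDL WT. Red cell genes were low in BDL KO 1 and BDL KO 3: Hba-a1, a globin, was at 10.2, 73.01, 13.03 and 115 CPM in BDL KO, against 47.7, 62.7, 73.003 and 107 CPM in BDL WT. The summed level of the 10 red cell and platelet genes ranged over 32.2 to 277 CPM in BDL KO and over 116 to 244 CPM in BDL WT, and the part of blood content in the results below was not tested.

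The balance of GC-rich and GC-poor transcripts also differed between libraries. The 4494 genes of highest GC content had a median log2 level, relative to the BDL WT mean, of 0.26, 0.30, 0.07 and 0.20 in BDL KO, against 0.28, -0.05, -0.07 and -0.15 in BDL WT. The 4495 genes of lowest GC content were at -0.22, -0.29, -0.30 and -0.18 in BDL KO, against -0.24, 0.02, 0.13 and 0.10 in BDL WT. BDL WT 2, 3 and 4 thus differed from BDL WT 1 and from all 4 BDL KO and all 8 sham libraries.

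**Figure D1:**
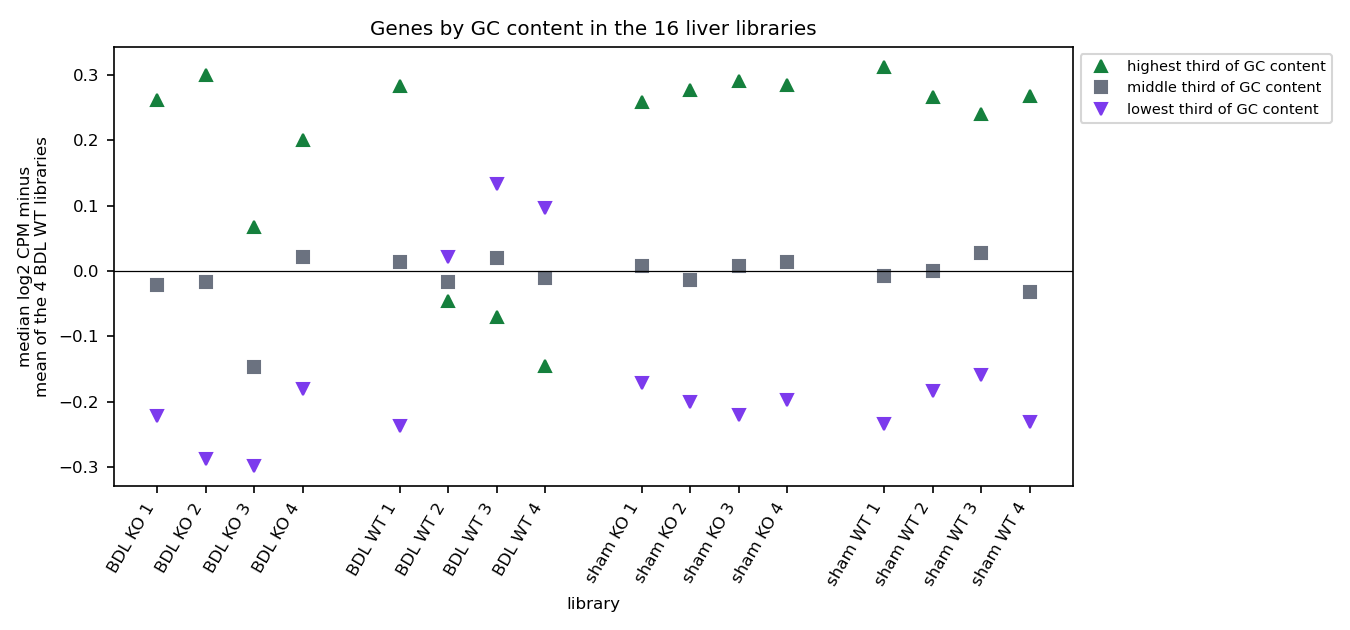
Median log2 level of genes of highest, middle and lowest GC content in each of the 16 liver libraries, relative to the mean of the 4 BDL WT libraries (y axis, log2 CPM). In BDL WT 2, 3 and 4 the high GC genes lie below the low GC genes, while in the 13 other libraries they lie above them.

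Mertk itself (ENSMUSG00000014361, chromosome 2) was measured in every library labelled knockout. Its level was 9.24, 17.6, 6.95 and 18.8 CPM in BDL KO, against 21.3, 24.9, 28.3 and 28.4 CPM in BDL WT. In sham liver it was 20.5, 10.8, 13.4 and 18.3 CPM in sham KO, against 18.1, 10.5, 14.8 and 13.8 CPM in sham WT. The 4 BDL KO libraries lay below all 4 BDL WT libraries, with BDL KO 1 and BDL KO 3 lowest, and the sham groups overlapped. The gene did not pass the test in ligated liver (log2 -0.97 ± 0.29, adjusted p = 0.0614), though it did by DESeq2 (adjusted p = 0.0231), and without BDL KO 1 and BDL KO 3 the log2 fold change was -0.48. Its counts therefore did not separate libraries by genotype label in sham liver, and whether a knockout transcript is still counted was not tested.

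Of the other TAM genes, the receptor Axl was at 11.02, 39.5, 17.4 and 25.4 CPM in BDL KO, against 37.5, 42.6, 114 and 42.3 CPM in BDL WT. Every BDL KO library but BDL KO 2 lay below the BDL WT range, BDL WT 3 stood far above the rest, and the gene did not pass (log2 -1.34 ± 0.37, adjusted p = 0.0517), though it did by DESeq2 (adjusted p = 0.0114). Without BDL WT 3 its log2 fold change was -0.80. Tyro3 was at most 1.28 CPM in the 8 libraries. The ligand Gas6 was at 87.4, 99.6, 239 and 79.2 CPM in BDL KO, against 146, 85.2, 89.9 and 97.4 CPM in BDL WT. BDL KO 3 lay above the BDL WT range, BDL KO 4 just below it, and BDL KO 1 and BDL KO 2 within it. The other ligand gene, Pros1 for protein S, was at 477, 196, 453 and 93.2 CPM in BDL KO, against 204, 208, 139.9 and 293 CPM in BDL WT, with BDL KO 1 and BDL KO 3 above and BDL KO 4 below every BDL WT library. Neither ligand passed (adjusted p = 0.605 for Gas6 and 0.364 for Pros1). Over the 5 TAM receptors and ligands the median log2 fold change was 0.04, and -0.53 without BDL KO 1 and BDL KO 3.

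Of 23 further genes of dying-cell uptake that were tested, 1 rose and 1 fell, beside 2.67% and 1.72% of all genes, with a median of -0.18. Itgav, the integrin alpha V subunit that serves both cell uptake and the release of active TGF-beta, fell: it was at 25.3, 31.6, 31.8 and 27.01 CPM in BDL KO, against 42.3, 48.1, 96.4 and 57.9 CPM in BDL WT. The groups did not overlap, and the BDL KO libraries were close together (log2 -1.08 ± 0.21, adjusted p = 0.03705). Nr1h2, which encodes the sterol receptor LXR-beta, rose (log2 1.10 ± 0.24, adjusted p = 0.0384), with BDL KO 1, 2 and 3 above the BDL WT range. The bridging protein gene Mfge8 was at 25.1, 117, 33.3 and 39.8 CPM in BDL KO, against 129.6, 87.997, 146 and 138 CPM in BDL WT. Elmo1, part of the engulfment machinery, was at 3.39, 5.94, 1.998 and 3.88 CPM in BDL KO, against 8.44, 7.97, 10.7 and 5.74 CPM in BDL WT. In both, BDL KO 2 lay within the BDL WT range and the other 3 BDL KO libraries below it, and neither gene passed (adjusted p = 0.0751 and 0.0541).

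Across all genes, 360 rose (2.67% of 13492) and 232 fell (1.72%), 592 in all (4.39%). The calls lay close to the threshold: the smallest adjusted p was 0.0370, while 3601 genes had an unadjusted p under 0.05. The median log2 fold change was -0.02. All 4 BDL KO libraries lay below all 4 BDL WT libraries for 588 genes (4.36%) and above them for 460 genes (3.41%). Of the called genes, 235 that rose and 188 that fell were separated in this way. BDL KO 1 lay above every BDL WT library in 30.4% of genes and below every one in 33.2%, and BDL KO 3 in 30.1% and 38.1%. For BDL KO 2 the shares were 20.6% and 21.3%, and for BDL KO 4 they were 20.7% and 22.8%. The median SD of log2 CPM over genes was 0.561 in BDL KO, 0.397 in BDL WT, 0.198 in sham KO and 0.247 in sham WT.

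These counts depended on single libraries. Without BDL KO 1, 0 genes rose and 1 fell, and without BDL KO 3, 1 rose and 0 fell. Leaving out BDL WT 2, BDL WT 3 or BDL WT 4, or any 1 of the 8 sham libraries, left 0 calls, with smallest adjusted p-values of 0.0513 to 0.127. Leaving out BDL KO 2, BDL KO 4 or BDL WT 1 raised the counts, to 981 higher and 940 lower, 901 higher and 536 lower, and 925 higher and 641 lower. With BDL KO 2 and BDL KO 4 alone, 3 genes rose and 1 fell, and with BDL KO 1 and BDL KO 3 alone, 2215 rose and 2578 fell. Of the genes that rose, 285 were among the 4494 of highest GC content and 18 among the 4495 of lowest, and of those that fell, 22 and 138. With an offset for GC content and length, which moved the median of all genes to 0.17, 246 rose and 73 fell, and 236 of the 592 calls were shared. With the 8 ligated libraries alone, 0 genes passed (smallest adjusted p = 0.309, with 1885 genes at an unadjusted p under 0.05), and DESeq2 on all 16 called 1046 higher and 862 lower. Scaling to total counts without TMM factors moved the median of all genes to -0.36 and left 0 calls (3980 genes at an unadjusted p under 0.05). Gene list medians of 0 to 0.39 in the text below were negative under that scaling, and negative ones stayed negative. The directions given below held for each called gene named in every one of these fits, also under that scaling.

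**Figure D2:**
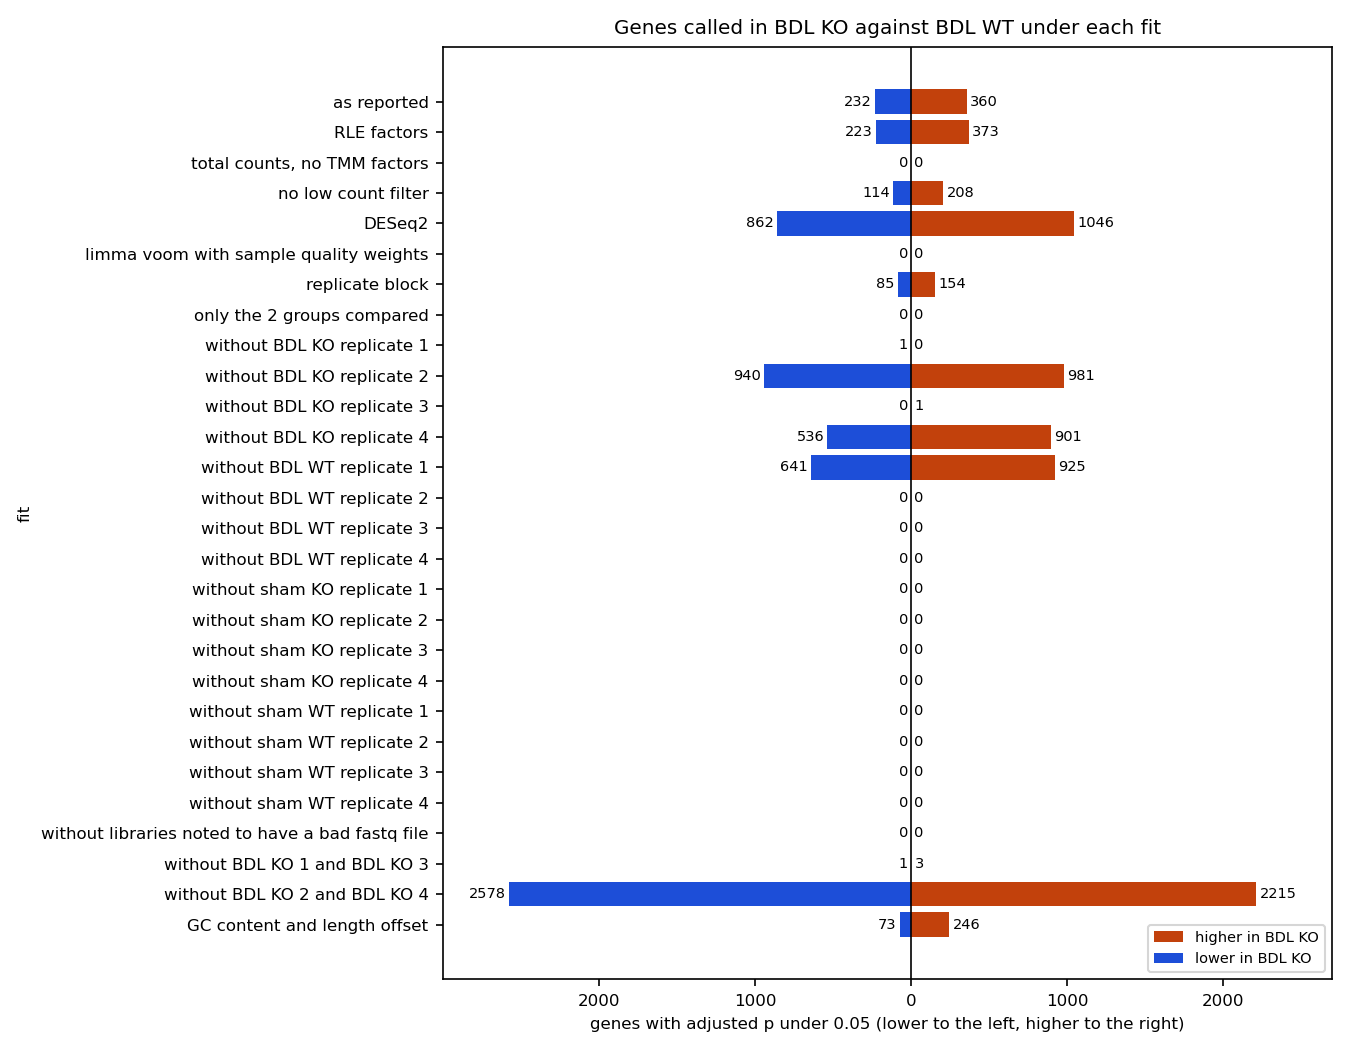
Number of genes with an adjusted p under 0.05 in BDL KO against BDL WT (x axis, genes lower in BDL KO to the left and higher to the right) under each fit (y axis). The 360 rises and 232 falls are lost in most fits that leave out 1 library, and grow to 2215 and 2578 when BDL KO 2 and BDL KO 4 are left out.

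The 5 genes with the smallest p were Apoa4, Romo1, Zbtb7b, Rpl35 and Wls. Apoa4, an apolipoprotein, was at 369.6, 55.6, 601 and 398 CPM in BDL KO, against 34.9, 25.5, 46.6 and 61.4 CPM in BDL WT. It rose (log2 3.08 ± 0.50, adjusted p = 0.03705), with BDL KO 1, 3 and 4 far above the BDL WT range and BDL KO 2 inside it. Romo1, a small inner-membrane protein of mitochondria, rose: it was at 37.5, 29.7, 24.8 and 22.6 CPM in BDL KO, against 14.1, 12.3, 6.297 and 6.06 CPM in BDL WT, with no overlap (log2 1.56 ± 0.26, adjusted p = 0.03705). Rpl35, a protein of the large ribosomal subunit, was at 26.9, 23.99, 20.5 and 16.1 CPM in BDL KO, against 10.7, 8.85, 6.25 and 5.35 CPM in BDL WT. It rose with no overlap either (log2 1.49 ± 0.25, adjusted p = 0.03705). Zbtb7b, a zinc finger repressor, rose likewise, at 78.5, 58.02, 85.7 and 88.3 CPM in BDL KO, against 49.8, 30.3, 37.9 and 30.95 CPM in BDL WT (log2 1.06 ± 0.18, adjusted p = 0.03705). Wls, the carrier that brings Wnt proteins to the cell surface, fell to 3.51, 6.49, 4.32 and 5.71 CPM in BDL KO, against 14.9, 11.3, 17.3 and 12.9 CPM in BDL WT (log2 -1.49 ± 0.25, adjusted p = 0.03705). For these 5 genes BDL KO 2 and BDL KO 4 alone gave log2 2.45, 1.45, 0.99, 1.38 and -1.19 in the order named above, and none then passed.

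Genes of the scar matrix were lower in BDL KO. Of 13 fibrillar and associated collagens tested, 8 fell and 0 rose, and 3 of the 13 fell with the offset for GC content and length. The log2 fold change was negative for all 13, with a median of -1.47, beside -0.02 over all genes. The median was -1.27 without BDL KO 1 and BDL KO 3 and -1.23 without BDL WT 3. Col3a1, the fibrillar collagen III, was at 15.4, 119, 82.2 and 69.4 CPM in BDL KO, against 146, 196, 743 and 304 CPM in BDL WT. All BDL KO libraries lay below all BDL WT libraries, BDL KO 1 was lowest and BDL WT 3 highest (log2 -2.28 ± 0.59, adjusted p = 0.0433). Col1a2, a chain of collagen I, was at 48.4, 76.99, 91.4 and 44.02 CPM in BDL KO, against 117, 113, 324 and 233 CPM in BDL WT (log2 -1.59 ± 0.41, adjusted p = 0.0445). Col5a2, a chain of the fibril-starting collagen V, was at 13.7, 16.8, 20.3 and 9.59 CPM in BDL KO, against 29.6, 22.7, 62.5 and 52.4 CPM in BDL WT (log2 -1.47 ± 0.37, adjusted p = 0.0422). Neither overlapped between groups, and in both BDL KO 4 was the lowest library. Col12a1, a collagen that decorates fibrils, also fell: it was at 0.924, 2.33, 1.598 and 2.51 CPM in BDL KO, against 6.28, 4.698, 7.43 and 5.29 CPM in BDL WT (log2 -1.68 ± 0.36, adjusted p = 0.0384).

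Of 26 matrix glycoproteins and proteoglycans, 7 fell and 1 rose, with a median of -1.15 (-0.90 without BDL KO 1 and BDL KO 3). With the GC and length offset 4 fell and 0 rose. Spp1, for osteopontin, which bile duct cells and macrophages secrete after injury, fell most of the members named. Its level was 30.98, 361, 149.7 and 59.04 CPM in BDL KO, against 689, 764, 2200.2 and 1573 CPM in BDL WT. The highest BDL KO library, BDL KO 2, lay well below the lowest BDL WT library (log2 -3.12 ± 0.64, adjusted p = 0.03705), and the sham groups averaged 49.6 ± 23.7 CPM in sham KO and 42.8 ± 15.01 CPM in sham WT (SD, n = 4 each). Thbs2, a thrombospondin that binds matrix and proteases, was at 2.22, 2.75, 1.598 and 3.14 CPM in BDL KO, against 6.16, 5.24, 18.8 and 8.13 CPM in BDL WT. Fbn1, the microfibril protein fibrillin-1, was at 4.19, 9.42, 8.47 and 5.196 CPM in BDL KO, against 9.67, 12.8, 31.2 and 21.7 CPM in BDL WT. Both fell with no overlap (log2 -1.98 ± 0.42, adjusted p = 0.0384, and log2 -1.47 ± 0.34, adjusted p = 0.0394), and BDL WT 3 was the highest library in each. Efemp1, for the matrix protein fibulin-3, fell at even levels within each group, 3.57, 5.63, 2.96 and 3.997 CPM in BDL KO, against 11.1, 7.16, 10.1 and 10.1 CPM in BDL WT (log2 -1.25 ± 0.26, adjusted p = 0.03705). The member that rose was Ecm1, a secreted matrix protein that hepatocytes make and that restrains latent TGF-beta in mouse liver. It was at 64.5, 44.9, 138 and 111 CPM in BDL KO, against 40.8, 33.5, 23.8 and 53.7 CPM in BDL WT, with BDL KO 1, 3 and 4 above the BDL WT range (log2 1.24 ± 0.30, adjusted p = 0.0409).

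The rest of the matrix program held at most 1 call per list. Of 15 basement membrane genes 1 fell, Col4a5 (log2 -1.13 ± 0.27, adjusted p = 0.0394), at 4.68, 4.59, 4.396 and 7.42 CPM in BDL KO, against 11.1, 7.59, 12.05 and 15.5 CPM in BDL WT, with BDL KO 4 just below the lowest BDL WT library. Col18a1, the collagen that yields endostatin and that hepatocytes express, ran the other way at 1581, 1063, 967 and 917 CPM in BDL KO, against 946, 581, 406 and 778 CPM in BDL WT without passing (adjusted p = 0.0784). Of 19 matrix proteases and inhibitors 1 fell, the membrane metalloprotease Mmp23 (log2 -1.39 ± 0.34, adjusted p = 0.0411), and Timp2, an inhibitor of these proteases, did not pass although its groups were separate (log2 -0.84 ± 0.26, adjusted p = 0.0674). Of 14 collagen processing genes 0 were called. Plod2, which hydroxylates collagen lysines for crosslinking, was at 1.17, 3.37, 2.08 and 1.998 CPM in BDL KO, against 4.804, 4.64, 11.8 and 8.38 CPM in BDL WT. Its groups did not overlap, and it missed the threshold (adjusted p = 0.0553).

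The calls among genes of the cells that make the matrix stand beside 2.67% of all genes that rose and 1.72% that fell. Of 19 genes of activated stellate cells and myofibroblasts, 2 fell and 0 rose, with a median of -0.90 (-0.71 without BDL KO 1 and BDL KO 3). Vim, the mesenchymal filament protein vimentin, was at 19.3, 61.9, 27.4 and 24.6 CPM in BDL KO, against 93.4, 67.8, 133 and 117 CPM in BDL WT. BDL KO 2 came close to BDL WT 2, and the groups did not overlap (log2 -1.63 ± 0.35, adjusted p = 0.0384). Tpm2, a tropomyosin of contractile cells, was at 0.678, 1.96, 0.879 and 2.51 CPM in BDL KO, against 4.19, 3.66, 4.11 and 4.77 CPM in BDL WT, again with no overlap (log2 -1.46 ± 0.38, adjusted p = 0.0454). Among 14 genes of quiescent stellate cells, 2 rose and 0 fell, with a median of 0.17: Ecm1, above, and Angptl6. Angptl6, a secreted angiopoietin-like factor, was at 1.66, 3.12, 4.56 and 9.59 CPM in BDL KO, against 1.42, 1.09, 0.882 and 1.68 CPM in BDL WT. BDL KO 4 was highest and BDL KO 1 within the BDL WT range (log2 1.91 ± 0.41, adjusted p = 0.0384). Rgs5, which damps G protein signals in pericytes, is on the same list and was at 4.93, 29.3, 30.9 and 38.8 CPM in BDL KO, against 66.7, 61.997, 109.6 and 63.4 CPM in BDL WT. It was lower in each BDL KO library than in any BDL WT library and missed the threshold (adjusted p = 0.0509).

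TGF-beta is the main signal that drives stellate cells to make matrix, and integrins release it from its latent form. Of 18 TGF-beta ligands, receptors and targets, 1 fell, with a median of -0.34. It was Pmepa1, a target gene that feeds back on the pathway, at 1.79, 6.79, 2.64 and 3.94 CPM in BDL KO, against 8.07, 8.36, 16.2 and 12.6 CPM in BDL WT (log2 -1.57 ± 0.42, adjusted p = 0.0454). The ligand Tgfb2 was at 0.616, 5.26, 1.12 and 1.31 CPM in BDL KO, against 13.9, 6.34, 8.8997 and 4.13 CPM in BDL WT, with BDL KO 2 inside the BDL WT range and the other 3 BDL KO libraries below it. Ccn2, the matricellular target CTGF, was at 4.804, 29.4, 9.27 and 10.3 CPM in BDL KO, against 31.96, 45.2, 34.1 and 28.1 CPM in BDL WT, with BDL KO 2 inside the range again. Neither passed (adjusted p = 0.0553 for Tgfb2 and 0.0952 for Ccn2). Of 12 integrins of fibrosis 2 fell, Itgav, above, and Itga6, the laminin receptor subunit that also marks bile duct cells. Itga6 was at 1.48, 5.63, 4.48 and 4.34 CPM in BDL KO, against 9.73, 10.8, 13.9 and 13.7 CPM in BDL WT (log2 -1.59 ± 0.37, adjusted p = 0.0394). Its groups did not overlap.

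Bile duct genes were mostly lower as well. Of 24 genes of bile duct epithelium and the ductular reaction, 4 fell and 0 rose. The log2 fold change was negative for 20 and positive for 4 of them. Those that fell were Spp1 and Itga6, above, with Anxa3 and Prom1. The median was -1.53, and -1.04 without BDL KO 1 and BDL KO 3. Anxa3, an annexin, was at 5.91, 14.8, 5.27 and 7.88 CPM in BDL KO, against 28.1, 27.5, 30.6 and 18.8 CPM in BDL WT. Its groups did not overlap, and BDL KO 2 was the highest of the BDL KO libraries (log2 -1.63 ± 0.32, adjusted p = 0.03705). Prom1, the progenitor marker prominin-1, was at 0.431, 5.75, 2.16 and 4.05 CPM in BDL KO, against 14.6, 7.81, 15.3 and 17.3 CPM in BDL WT (log2 -2.14 ± 0.52, adjusted p = 0.0409), with BDL KO 1 far below the rest. Krt19, the keratin that defines bile duct cells, was at 2.28, 11.99, 4.96 and 1.83 CPM in BDL KO, against 39.3, 11.6, 8.23 and 14.1 CPM in BDL WT. BDL KO 2 lay within the BDL WT range, BDL WT 1 was far above, and the gene did not pass (log2 -1.80 ± 0.66, adjusted p = 0.0997). Other markers of these cells overlapped between groups too. Sox9 was at 11.1, 14.8, 45.7 and 10.2 CPM in BDL KO, against 25.6, 18.95, 42.4 and 41.3 CPM in BDL WT, highest in BDL KO 3. Krt7 was at 3.70, 11.5, 2.56 and 1.37 CPM in BDL KO, against 31.6, 12.4, 8.06 and 2.97 CPM in BDL WT. For Epcam, BDL KO 2 alone lay within the BDL WT range and the rest below it. The per-library medians of the list, relative to the BDL WT mean, were -1.82, -0.26, -1.49 and -1.52 in BDL KO, against 0.72, 0.04, -0.01 and -0.48 in BDL WT, so that BDL KO 2 lay between BDL WT 3 and BDL WT 4.

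**Figure D3:**
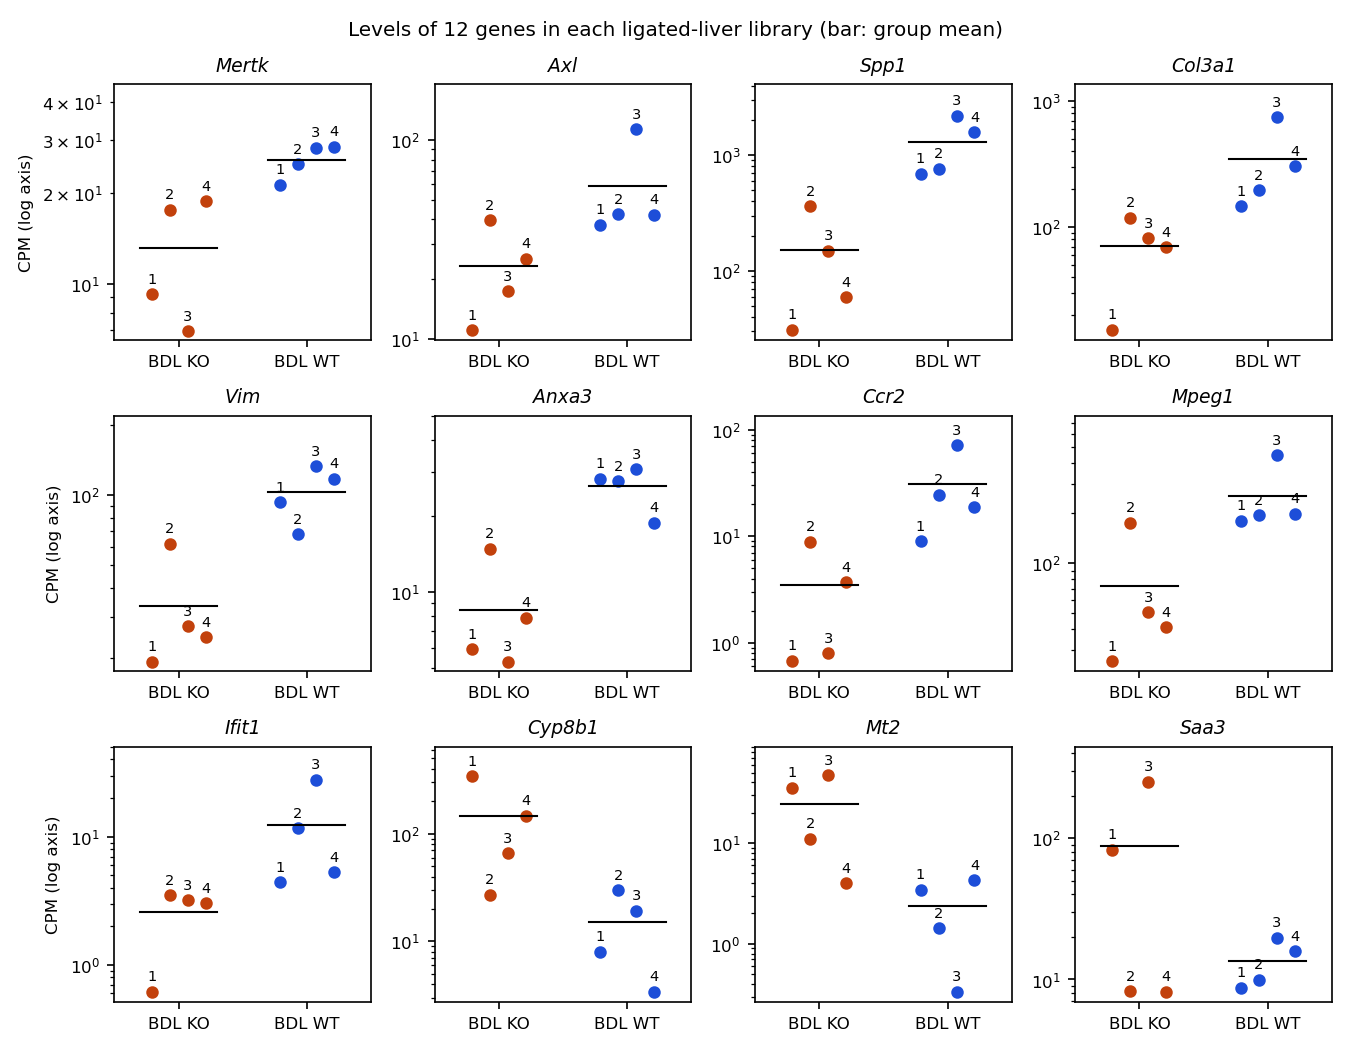
CPM (log axis) of 12 genes in each library of BDL KO (left) and BDL WT (right); points are single libraries with their replicate number and bars are group means. Spp1, Col3a1, Vim, Anxa3 and Ccr2 do not overlap between groups, Cyp8b1 and Mt2 are highest in BDL KO libraries, and Saa3 is high only in BDL KO 1 and BDL KO 3 of the 8 libraries shown.

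Macrophage genes were lower in 3 of the 4 BDL KO libraries and close to wild type in BDL KO 2. Of 24 core macrophage genes 2 fell and 0 rose, 23 of 24 log2 fold changes were negative, and the median was -1.23 (-1.04 without BDL KO 1 and BDL KO 3, -0.91 without BDL WT 3). With the GC and length offset 0 of the 24 were called. Mpeg1, the macrophage pore protein perforin-2, was at 25.7, 175, 50.4 and 40.997 CPM in BDL KO, against 179.8, 195, 447 and 199 CPM in BDL WT. BDL KO 2 lay just under BDL WT 1 and the other BDL KO libraries far below (log2 -1.81 ± 0.49, adjusted p = 0.0494). Ptprc, the leukocyte marker CD45, was at 2.09, 14.2, 10.4 and 7.71 CPM in BDL KO, against 12.99, 23.7, 80.9 and 24.1 CPM in BDL WT, with BDL KO 2 above BDL WT 1 and BDL WT 3 far above all others (log2 -2.05 ± 0.52, adjusted p = 0.0422; log2 -1.23 without BDL WT 3). Several members did not pass although most libraries were separate. Ctss, a lysosomal protease of antigen-presenting cells, was at 21.003, 115, 94.1 and 30.2 CPM in BDL KO, against 118, 151, 306 and 155 CPM in BDL WT (adjusted p = 0.0573). The defining marker Adgre1, which encodes F4/80, was at 1.23, 22.1, 5.99 and 9.19 CPM in BDL KO, against 19.7, 20.3, 65.5 and 19.3 CPM in BDL WT (adjusted p = 0.0812). Cybb, a subunit of the phagocyte oxidase, was at 3.08, 59.4, 14.5 and 12.3 CPM in BDL KO, against 44.4, 69.1, 178 and 78.3 CPM in BDL WT (adjusted p = 0.0591). In both, BDL KO 2 lay within the BDL WT range.

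One member of that list, picked after its values were seen, behaved otherwise. Cd14, the coreceptor for bacterial lipopolysaccharide, was at 128, 90.6, 4457 and 12.9 CPM in BDL KO, against 90.1, 86.7, 158 and 276 CPM in BDL WT. BDL KO 3 stood alone at the top and BDL KO 4 was the lowest library, and the gene did not pass (log2 2.94 ± 1.14, adjusted p = 0.115). In sham liver its mean was 2.08 ± 0.41 CPM in sham KO and 2.62 ± 0.89 CPM in sham WT (SD, n = 4 each).

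Among 14 genes of Kupffer cells 1 fell and 0 rose, with a median of -0.92 (-0.51 without BDL KO 1 and BDL KO 3). It was C6, a terminal complement component that hepatocytes also make, at 65.2, 140.02, 86.9 and 69.9 CPM in BDL KO, against 147, 189, 310.2 and 179 CPM in BDL WT (log2 -1.19 ± 0.28, adjusted p = 0.0394). The Kupffer cell lectin Clec4f was at 19.96, 89.5, 25.01 and 63.4 CPM in BDL KO, against 80.9, 84.3, 169 and 113 CPM in BDL WT. Timd4, a receptor for phosphatidylserine on dying cells, was at 0.3696, 8.45, 2.48 and 3.37 CPM in BDL KO, against 5.67, 9.18, 22.2 and 9.29 CPM in BDL WT. In both genes BDL KO 2 lay within the BDL WT range, the other 3 BDL KO libraries lay below it, and neither passed (adjusted p = 0.0711 and 0.0858). Of 14 genes of monocytes and their chemokines 1 fell, all 14 log2 fold changes were negative, and the median was -1.04. Ccr2, the receptor that brings monocytes out of the marrow, was at 0.678, 8.87, 0.799 and 3.71 CPM in BDL KO, against 8.93, 24.5, 71.8 and 18.8 CPM in BDL WT. BDL KO 2 was just below BDL WT 1, and BDL KO 1 and BDL KO 3 were under 1 CPM (log2 -3.13 ± 0.74, adjusted p = 0.0394). Of 15 genes of scar-associated macrophages 0 were called, with a median of -0.36.

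Genes of other blood cells gave no such calls. Of 13 neutrophil genes 0 were called and the median was 0.39, but -0.77 without BDL KO 1 and BDL KO 3. S100a8, a calcium-binding protein that fills neutrophils, was at 3.57, 4.47, 48.2 and 2.798 CPM in BDL KO, against 3.76, 6.72, 8.69 and 4.901 CPM in BDL WT. BDL KO 3 alone lay above the BDL WT range. Cell adhesion and inflammation gave 2 calls among 20 NF-kB targets and cytokines, 1 in each direction. Vcam1, which holds leukocytes on the vessel wall and on bile duct cells, fell: it was at 8.25, 35.9, 20.9 and 16.8 CPM in BDL KO, against 41.9, 56.2, 102 and 67.7 CPM in BDL WT (log2 -1.71 ± 0.37, adjusted p = 0.0384). Rela, the p65 subunit of NF-kB itself, rose: it was at 123, 78.6, 355 and 83.5 CPM in BDL KO, against 74.95, 62.3, 56.4 and 61.3 CPM in BDL WT (log2 1.33 ± 0.36, adjusted p = 0.0479). In Rela, BDL KO 2 lay just above BDL WT 1, while BDL KO 3 stood far above, and without BDL KO 1 and BDL KO 3 the log2 fold change was 0.37. In Vcam1 the groups did not overlap either. Cxcl9, a chemokine induced by interferon-gamma, was at 0.123, 1.59, 1.12 and 6.22 CPM in BDL KO, against 1.23, 5.46, 71.7 and 4.13 CPM in BDL WT, with BDL WT 3 far above all other libraries (adjusted p = 0.0751).

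Interferon-stimulated genes were lower in BDL KO, and the size of the difference turned on BDL WT 3. Type I interferon switches such genes on through the factor ISGF3, which binds a DNA element read here as the letters GAAANNGAAA on either strand. Of 30 such genes tested 4 fell and 0 rose, all 30 log2 fold changes were negative, and the median was -1.62. Without BDL WT 3 the median was -0.58, and without BDL KO 1 and BDL KO 3 it was -1.28. Relative to the BDL WT mean, the library medians were -2.30, -0.84, -1.36 and -0.82 in BDL KO, against -0.86, -0.15, 1.64 and -0.58 in BDL WT, so that BDL WT 1 lay below BDL KO 2 and BDL KO 4.

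The 120 bases upstream of the start are shown for Ifit1 and Oas1a, members of the list that fell, and for Trim30a, an interferon-induced gene outside the list that fell, because all 3 carry the element close to the start. The same window of Oasl2, another member that fell, held no match, and Mx1, which fell too, had no promoter sequence to search. The printed sequences are RefSeq sequences of the build GRCm38.p6, written 5′ to 3′ on the strand of the gene, with each match in capitals.
Ifit1, chr19:34640769-34640888, plus strand: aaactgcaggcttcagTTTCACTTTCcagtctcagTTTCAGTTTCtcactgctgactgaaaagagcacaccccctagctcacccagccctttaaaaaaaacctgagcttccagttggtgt
Oas1a, chr5:120907526-120907645, minus strand: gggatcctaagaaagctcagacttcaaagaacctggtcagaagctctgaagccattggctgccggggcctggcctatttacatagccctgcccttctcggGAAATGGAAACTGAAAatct
Trim30a, chr7:104465194-104465313, minus strand: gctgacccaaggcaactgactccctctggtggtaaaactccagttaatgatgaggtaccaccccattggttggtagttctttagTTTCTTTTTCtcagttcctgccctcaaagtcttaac
In Ifit1 the element begins 104 and 85 bases upstream of the start, in Oas1a 20 and 14 bases upstream with an overlap, and in Trim30a 36 bases upstream. The bases after the start were found in a GENCODE transcript for Ifit1 and the Trim30a entry shown, but not for Oas1a or Oasl2. The windows of Oas1a and Oasl2 thus rest on the RefSeq start alone. A second entry of the table under the symbol Trim30a held no match. In the 250 bases upstream, the element was found in 11 of the 23 interferon-stimulated genes with an entry (47.8%), in 349 of 10494 tested genes (3.33%) and in 936 of all 27025 genes of the table (3.46%). Of called genes with an entry, 20 of 182 that fell (11%) and 7 of 291 that rose (2.41%) held it. A match is a description of letters, and binding was not measured.

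The levels of these genes were as follows. Ifit1, which blocks the translation of viral RNA, was at 0.616, 3.49, 3.197 and 3.03 CPM in BDL KO, against 4.43, 11.6, 27.8 and 5.29 CPM in BDL WT. BDL KO 1 was lowest by far, and the groups did not overlap (log2 -2.26 ± 0.59, adjusted p = 0.0445). Oas1a, which makes the second messenger that activates RNase L, was at 0.431, 2.14, 0.3996 and 1.31 CPM in BDL KO, against 1.79, 3.17, 19.1 and 2.77 CPM in BDL WT, with BDL KO 2 inside the BDL WT range and BDL WT 3 far above it (log2 -2.63 ± 0.69, adjusted p = 0.0448). Its relative Oasl2 was at 6.53, 4.04, 4.08 and 3.08 CPM in BDL KO, against 6.71, 9.67, 48.2 and 7.03 CPM in BDL WT, with BDL KO 1 just under BDL WT 1 (log2 -2.02 ± 0.53, adjusted p = 0.0448). The fourth member that fell was the antiviral GTPase Mx1, at 0.493, 1.102, 0.1598 and 0.742 CPM in BDL KO, against 1.29, 2.62, 10.1 and 3.35 CPM in BDL WT (log2 -2.77 ± 0.63, adjusted p = 0.0387). Trim30a, an interferon-induced ubiquitin ligase, was at 1.54, 5.02, 4.56 and 5.02 CPM in BDL KO, against 6.16, 14.3, 53.9 and 10.3 CPM in BDL WT (log2 -2.39 ± 0.56, adjusted p = 0.0394). Gbp9, a guanylate-binding GTPase, was at 0.739, 3.37, 3.76 and 2.68 CPM in BDL KO, against 4.003, 8.904, 38.7 and 4.32 CPM in BDL WT (log2 -2.42 ± 0.63, adjusted p = 0.0436). Without BDL WT 3 the log2 fold change was -0.82 for Oasl2, -1.34 for Trim30a, -1.12 for Gbp9, -1.25 for Oas1a and -1.46 for Ifit1. With the GC and length offset 2 of the 30 list members fell.

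Antigen presentation through MHC class II depended on that library as well. Of 12 MHC class II and dendritic cell genes 0 were called, and the median was -2.34, but -0.74 without BDL WT 3. H2-Aa, a chain of the class II molecule, was at 3.94, 28.8, 12.2 and 17.9 CPM in BDL KO, against 13.5, 60.6, 300.03 and 27.6 CPM in BDL WT (log2 -2.67 ± 0.74, adjusted p = 0.05099). Cd74, its invariant chain, was at 17.1, 124, 45.6 and 71.7 CPM in BDL KO, against 59.7, 199.7, 994 and 83.4 CPM in BDL WT (log2 -2.37 ± 0.72, adjusted p = 0.0611). In both genes BDL WT 1 lay below BDL KO 2 and BDL KO 4, and BDL WT 3 was more than 4 times any other library.

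**Figure D4:**
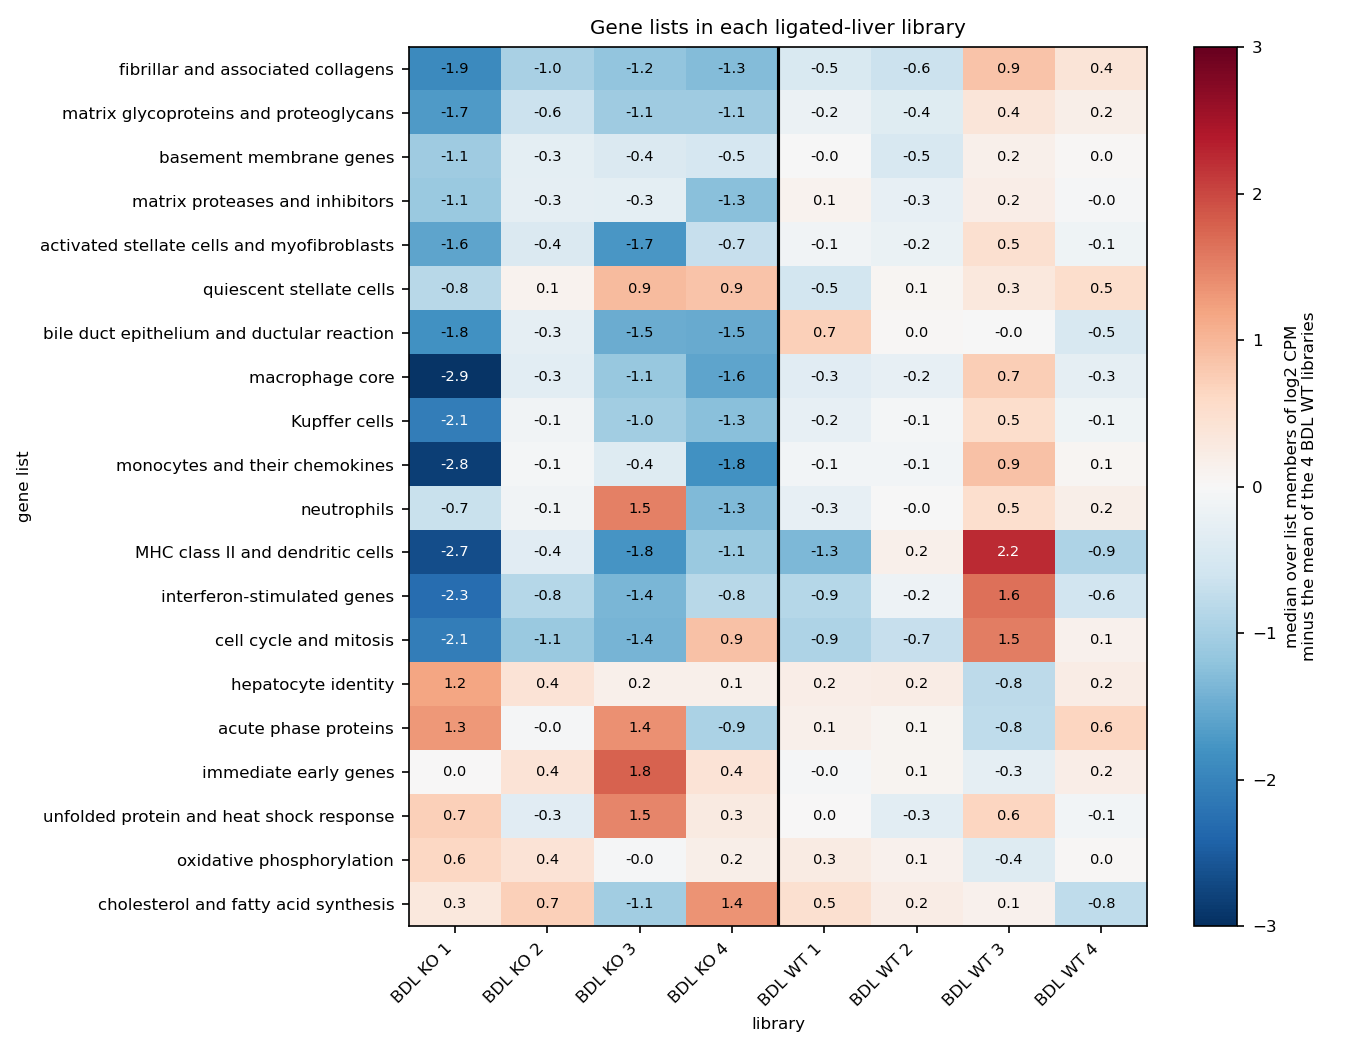
Median over the tested members of 20 gene lists (rows) of log2 CPM minus the mean of the 4 BDL WT libraries, in each ligated-liver library (columns, BDL KO left of the line). BDL KO 1 has the lowest value of the 8 libraries for collagens, macrophage, monocyte and interferon lists, BDL KO 2 lies within the BDL WT range for the macrophage core and monocyte lists and below it for collagens, and BDL WT 3 has the highest interferon and MHC class II values.

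The lists of hepatocyte identity, bile acid synthesis and bile acid transport held at most 1 call each. Of all genes 2.67% rose and 1.72% fell. Of 23 hepatocyte identity genes 0 were called, with a median of 0.50 (0.23 without BDL KO 1 and BDL KO 3). Apoa1, the main protein of HDL, was at 16985, 10967, 9549 and 10323 CPM in BDL KO, against 9189, 5769, 2639 and 5509 CPM in BDL WT and did not pass although the groups were separate (adjusted p = 0.0734). Of 15 genes of bile acid synthesis and its control 1 rose. It was Cyp8b1, the sterol 12-alpha-hydroxylase that sets the share of cholic acid. Its level was 342, 27.2, 65.9 and 147 CPM in BDL KO, against 8.01, 29.9, 19.2 and 3.42 CPM in BDL WT. BDL KO 1, 3 and 4 lay above the BDL WT range and BDL KO 2 within it (log2 3.26 ± 0.73, adjusted p = 0.0384), and the sham means were 322 ± 99.6 CPM in sham KO and 363 ± 180.2 CPM in sham WT (SD, n = 4 each). Of 17 bile acid and organic anion transporters 1 fell: Slco1a1, an uptake carrier of the sinusoidal membrane, at 2.46, 2.26, 0.639 and 1.66 CPM in BDL KO, against 4.31, 5.13, 25.9 and 6.51 CPM in BDL WT (log2 -2.56 ± 0.51, adjusted p = 0.03705). Its sham means were 587 ± 52.6 CPM in sham KO and 512 ± 58.1 CPM in sham WT, so that both ligated groups were far below sham liver. Without BDL WT 3 its log2 fold change was -1.59.

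Slco1a1 is also a male-biased gene under growth hormone control, and of 20 genes of that kind 3 fell and 0 rose, with a median of -0.16. The other two were major urinary proteins, a family of near-identical genes whose reads may be split between copies. Mup20 was at 355, 164, 160.4 and 110.2 CPM in BDL KO, against 138, 627, 7521 and 1592 CPM in BDL WT (log2 -3.64 ± 0.84, adjusted p = 0.0388). BDL KO 4 alone lay below the BDL WT range, and BDL WT 3 stood far above all other libraries. Mup21 was at 1.29, 0.612, 0.719 and 0.742 CPM in BDL KO, against 1.23, 1.53, 18.01 and 3.74 CPM in BDL WT (log2 -2.87 ± 0.70, adjusted p = 0.0409). In Mup21, BDL KO 1 lay within the BDL WT range. Without BDL WT 3 their log2 fold changes were -2.001 and -1.35. The sex of the animals is not in the labels.

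The lists of fatty acid oxidation, oxidative phosphorylation and glucose metabolism held 1 call each, a rise, beside 2.67% of all genes that rose. Of 24 fatty acid oxidation genes 1 rose, and the median was 0.11. Acadvl, the first dehydrogenase for very long fatty acids, was at 143, 111, 113 and 129.8 CPM in BDL KO, against 86.2, 58.5, 66.999 and 110.1 CPM in BDL WT and did not pass (adjusted p = 0.0555). Ndufb8, a subunit of respiratory complex I, was at 30.9, 22.1, 18.1 and 20.3 CPM in BDL KO, against 15.6, 12.8, 9.32 and 11.3 CPM in BDL WT (log2 0.90 ± 0.19, adjusted p = 0.0384), the 1 call among 21 oxidative phosphorylation genes (median 0.27). The groups did not overlap for Acadvl or for Ndufb8. Ldha, a lactate dehydrogenase subunit, was at 1819.9, 837, 2052 and 1232 CPM in BDL KO, against 757, 742, 697 and 948 CPM in BDL WT (log2 0.92 ± 0.25, adjusted p = 0.0484), the 1 call among 17 glucose metabolism genes. Fbp1, a key enzyme of glucose production, was at 2695, 731, 2944 and 499 CPM in BDL KO, against 660.1, 740.2, 461 and 857 CPM in BDL WT. BDL KO 1 and BDL KO 3 were more than 3 times any BDL WT library and the other two lay within the BDL WT range (adjusted p = 0.0728).

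Acute phase proteins split the BDL KO libraries. Many of these proteins are made by hepatocytes under interleukin-6, and the libraries do not tell which cells made a given one. Of 24 tested 0 were called, and the median was 0.63 with all libraries and -0.54 without BDL KO 1 and BDL KO 3. Saa3, an inducible serum amyloid A, was at 82.8, 8.26, 251 and 8.17 CPM in BDL KO, against 8.75, 9.996, 19.8 and 15.8 CPM in BDL WT. Fgb, the fibrinogen beta chain, was at 37185, 8556, 55638 and 5921 CPM in BDL KO, against 9632, 8327, 5067 and 14712 CPM in BDL WT. Itih4, a plasma protease inhibitor, was at 12378, 3442, 18979.5 and 2427 CPM in BDL KO, against 3081, 2708, 1776 and 5245 CPM in BDL WT. In all 3 genes BDL KO 1 and BDL KO 3 stood above every BDL WT library, and BDL KO 2 and BDL KO 4 did not. The adjusted p-values were 0.0657, 0.0997 and 0.0778. Crp and Saa4, which the liver of the mouse makes in the resting state as well, ran the other way. Crp was at 202, 222, 80.1 and 206 CPM in BDL KO, against 238, 351, 348 and 314 CPM in BDL WT. Saa4 was at 74.2, 137, 88.3 and 97.4 CPM in BDL KO, against 141, 189.5, 230.2 and 216 CPM in BDL WT. Both had all BDL KO libraries below all BDL WT libraries without passing (adjusted p = 0.06096 and 0.0535).

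The list of immediate early genes stood highest in BDL KO 3. Relative to the BDL WT mean, its library medians were 0.01, 0.41, 1.76 and 0.40 in BDL KO, against -0.03, 0.08, -0.28 and 0.21 in BDL WT. Of 16 immediate early genes 1 rose, with a median of 1.06 (0.21 without BDL KO 1 and BDL KO 3). Ier2, a nuclear protein induced within minutes of a stimulus, was at 90.1, 71.4, 119 and 60.6 CPM in BDL KO, against 57.03, 33.1, 20.1 and 22.5 CPM in BDL WT, with no overlap (log2 1.36 ± 0.30, adjusted p = 0.0384). Junb and Jun are subunits of the AP-1 factor. Junb was at 349, 123, 659 and 116 CPM in BDL KO, against 132, 55.99, 21.03 and 105 CPM in BDL WT. Jun was at 76.1, 67.1, 240.5 and 72.3 CPM in BDL KO, against 41.2, 46.3, 44.5 and 39.7 CPM in BDL WT. Both were highest in BDL KO 3, the groups overlapped for Junb but not for Jun, and neither passed (adjusted p = 0.0561 and 0.0573). Such genes also respond to handling and ischaemia of tissue, which the labels do not record.

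Of 19 genes of metal handling and oxidative stress 2 rose. Mt2, the metal-binding metallothionein-2, was at 35.5, 11.1, 47.2 and 3.997 CPM in BDL KO, against 3.45, 1.42, 0.336 and 4.26 CPM in BDL WT. BDL KO 1, 2 and 3 lay above the BDL WT range and BDL KO 4 within it (log2 3.38 ± 0.85, adjusted p = 0.0422). Trib3, a pseudokinase of the amino acid response, was at 17.6, 7.96, 22.2 and 45.3 CPM in BDL KO, against 10.8, 4.64, 2.73 and 2.64 CPM in BDL WT (log2 2.17 ± 0.52, adjusted p = 0.0394), with BDL KO 1, 3 and 4 above the range. Of 13 p53 and senescence genes 2 rose. Btg2, an antiproliferative gene, was at 460.3, 129, 669.7 and 108 CPM in BDL KO, against 88.9, 78.4, 37.4 and 114 CPM in BDL WT. Sesn2, a stress-induced brake on mTORC1, was at 43.9, 18.3, 44.3 and 13.1 CPM in BDL KO, against 15.1, 12.3, 8.27 and 13.4 CPM in BDL WT. BDL KO 1 and BDL KO 3 were the highest libraries in both (log2 2.10 ± 0.54, adjusted p = 0.0426, and log2 1.29 ± 0.34, adjusted p = 0.0447), and without them the log2 fold changes were 0.59 and 0.38. Of 16 genes of the unfolded protein and heat shock response 1 fell, the inducible chaperone Hspa1b, at 1.11, 2.14, 0.799 and 2.17 CPM in BDL KO, against 4.06, 2.29, 14.3 and 5.93 CPM in BDL WT (log2 -2.08 ± 0.49, adjusted p = 0.0394). The median of that list was 0.87, against -0.05 without BDL KO 1 and BDL KO 3.

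The 10 largest falls among separated genes with a group mean of at least 10 CPM included Ccr2, Spp1, Slco1a1, Gbp9, Trim30a, Col3a1 and Ifit1, above. The other 3 were Ms4a6b, Fgl2 and Casp12. Ms4a6b, a membrane protein of immune cells, was at 1.11, 4.16, 1.04 and 1.599 CPM in BDL KO, against 4.804, 8.19, 22.7 and 8.83 CPM in BDL WT (log2 -2.49 ± 0.50, adjusted p = 0.03705). Fgl2, a fibrinogen-like protein of macrophages and T cells, was at 2.22, 5.14, 5.91 and 3.14 CPM in BDL KO, against 6.53, 12.8, 53.5 and 15.7 CPM in BDL WT (log2 -2.44 ± 0.55, adjusted p = 0.0387). Casp12, a caspase of the endoplasmic reticulum, was at 2.83, 5.32, 2.24 and 3.77 CPM in BDL KO, against 11.02, 11.9, 32.5 and 8.96 CPM in BDL WT (log2 -2.18 ± 0.44, adjusted p = 0.03705). BDL WT 3 was the highest library in all 3, and without it the log2 fold changes were -1.87, -1.50 and -1.58.

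The 10 largest rises by the same rule were led by Depp1, a FOXO target linked to autophagy. Depp1 was at 46.4, 114, 504 and 55.7 CPM in BDL KO, against 25.9, 29.4, 17.9 and 10.5 CPM in BDL WT. BDL KO 3 stood far above the rest, and every BDL KO library was above every BDL WT library (log2 3.10 ± 0.77, adjusted p = 0.0419). Dact2, an inhibitor of Wnt and TGF-beta signals, was at 71.9, 24.4, 82.6 and 26.8 CPM in BDL KO, against 22.2, 7.43, 9.403 and 6.84 CPM in BDL WT (log2 2.16 ± 0.41, adjusted p = 0.03705), with BDL WT 1 the one wild-type library near BDL KO 2 and BDL KO 4. Irf2bp2, a transcriptional cofactor, was at 279, 85.2, 353 and 63.04 CPM in BDL KO, against 59.2, 45.3, 31.7 and 47.4 CPM in BDL WT (log2 2.09 ± 0.49, adjusted p = 0.0394). Tle1, a corepressor of the Groucho family, was at 128, 40.02, 163 and 55.3 CPM in BDL KO, against 33.7, 36.1, 23.05 and 32.6 CPM in BDL WT (log2 1.62 ± 0.34, adjusted p = 0.0384). In both, BDL KO 1 and BDL KO 3 were above 100 CPM and no other library was. Maff, a small Maf factor of the stress response, was at 15.7, 13.1, 34.1 and 17.4 CPM in BDL KO, against 7.02, 6.94, 4.41 and 5.16 CPM in BDL WT (log2 1.77 ± 0.42, adjusted p = 0.0395), high in all 4 BDL KO libraries.

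Il22ra1, the receptor subunit through which hepatocytes sense interleukin-22, rose to 16.2, 6.61, 25.01 and 5.25 CPM in BDL KO, against 4.804, 2.24, 4.62 and 3.93 CPM in BDL WT (log2 1.76 ± 0.47, adjusted p = 0.0457). Soat2, which esterifies cholesterol in hepatocytes, was at 139, 76.9, 208 and 112 CPM in BDL KO, against 53.2, 45.4, 24.9 and 53.5 CPM in BDL WT (log2 1.59 ± 0.27, adjusted p = 0.03705). Atg2a, a lipid carrier of autophagosome growth, was at 182, 77.9, 370.1 and 94.2 CPM in BDL KO, against 69.2, 50.1, 30.6 and 74.5 CPM in BDL WT (log2 1.69 ± 0.39, adjusted p = 0.0394). Lemd2, a protein of the inner nuclear membrane, was at 75.8, 31.2, 94.1 and 32.4 CPM in BDL KO, against 24.4, 17.5, 15.03 and 19.7 CPM in BDL WT (log2 1.61 ± 0.29, adjusted p = 0.03705). Rcl1, which serves ribosomal RNA processing, was at 349, 138, 584 and 141 CPM in BDL KO, against 113, 79.3, 48.6 and 137 CPM in BDL WT (log2 1.68 ± 0.40, adjusted p = 0.0403). BDL KO 1 and BDL KO 3 were the 2 highest libraries for 8 of the 10 rises, the exceptions being Depp1 and Maff. Without these libraries the log2 fold changes of Depp1, Dact2, Irf2bp2, Il22ra1 and Rcl1 were 2.04, 1.18, 0.71, 0.62 and 0.58.

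Without BDL KO 1 and BDL KO 3, 4 genes passed, and all 4 had passed with them. Angptl6, above, rose by log2 2.36 in BDL KO 2 and 4 (adjusted p = 0.0325). Slc16a11, a carrier of the monocarboxylate transporter family, was at 8.75, 16.9, 7.51 and 33.3 CPM in BDL KO, against 9.18, 6.39, 5.79 and 5.42 CPM in BDL WT. BDL KO 2 and BDL KO 4 lay above the BDL WT range, and BDL KO 1 and BDL KO 3 within it (log2 1.32 ± 0.36, adjusted p = 0.0479 with all libraries). St3gal3, a sialyltransferase, was at 71.8, 56.4, 33.2 and 79.4 CPM in BDL KO, against 37.7, 33.2, 36.8 and 30.8 CPM in BDL WT (log2 0.80 ± 0.20, adjusted p = 0.0426), and BDL KO 3 was the one library inside the BDL WT range. The predicted gene Gm14327 fell: it was at 3.57, 1.29, 1.04 and 1.26 CPM in BDL KO, against 5.23, 6.06, 3.69 and 6.38 CPM in BDL WT (log2 -1.57 ± 0.35, adjusted p = 0.0384), and BDL KO 1 was close to BDL WT 3.

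The size of the ligation response in each library was measured with gene sets from other mice. In the inhibitor experiment of the series, 6 ligated livers and 3 sham livers given the solvent DMSO gave the 200 genes most raised and the 200 most lowered by ligation. Of the raised genes 187 were tested here, and 2 rose and 8 fell in BDL KO, with a median log2 fold change of -0.58. Of all genes 2.67% rose and 1.72% fell. Relative to the sham WT mean, their median log2 level was 1.43, 3.02, 2.14 and 1.84 in BDL KO, against 3.10, 3.08, 2.94 and 2.88 in BDL WT. BDL KO 2 was within the BDL WT range and the other 3 libraries below it. Of the lowered genes 181 were tested, and 1 rose and 4 fell, beside the same 2.67% and 1.72% of all genes, with a median of -0.35. Their median level was -2.88, -2.19, -3.84 and -1.66 in BDL KO, against -2.32, -2.16, -1.55 and -2.25 in BDL WT. BDL KO 1 and BDL KO 3 lay below all BDL WT libraries, so that in these libraries both the genes raised and the genes lowered by ligation were lower than in wild type. Without BDL KO 1 and BDL KO 3 the medians of the fold changes were -0.43 for the raised and -0.03 for the lowered set.

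**Figure D5:**
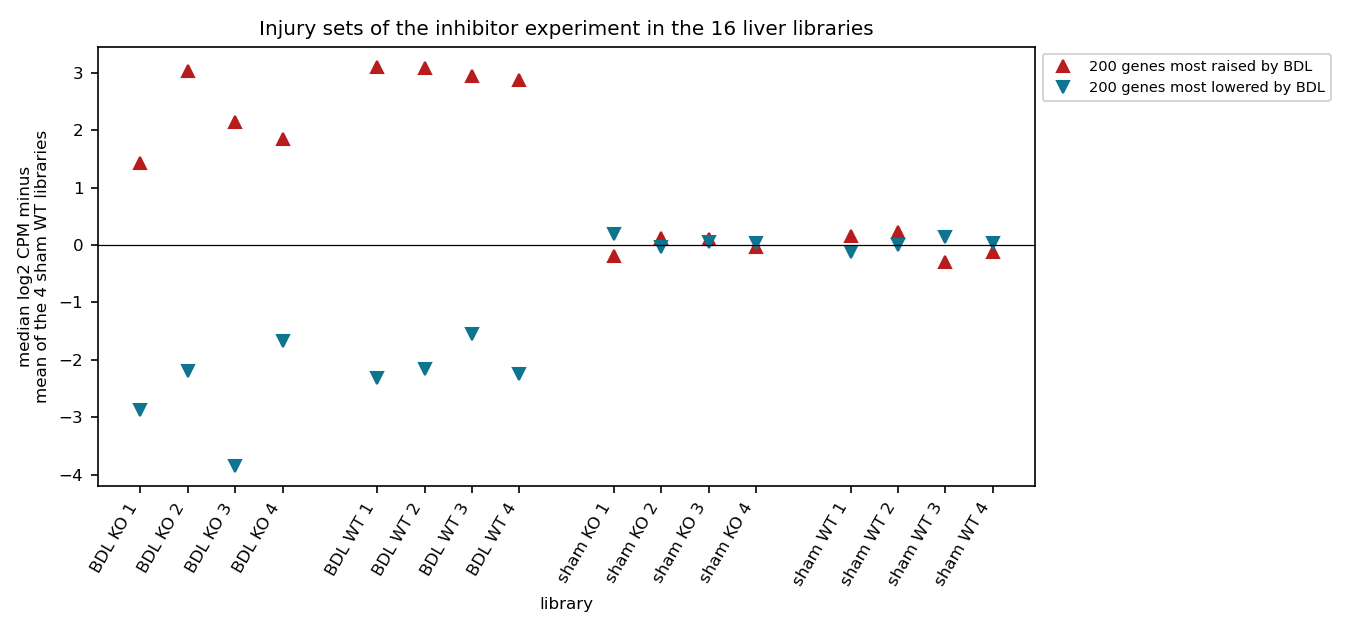
Median log2 CPM, relative to the mean of the 4 sham WT libraries (y axis), of the 200 genes most raised and the 200 most lowered by bile duct ligation in the inhibitor experiment, in each of the 16 liver libraries (x axis). Among the 8 ligated libraries, the raised set is lowest in BDL KO 1 at 1.43 and near 3 in BDL KO 2 and BDL WT; the lowered set is lowest in BDL KO 3 at -3.84, and the sham libraries lie near 0 for both sets.

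In sham liver the same genotype labels gave 0 calls (0% of 13492; smallest adjusted p = 1, 70 genes at an unadjusted p under 0.05, and 0 calls by DESeq2). The gene with the smallest p was Scai, a suppressor of cell invasion, at 7.403, 5.16, 6.75 and 6.36 CPM in sham KO, against 4.53, 3.85, 3.096 and 2.74 CPM in sham WT (log2 0.85 ± 0.24). The other four of the 5 smallest were C1qtnf4, Rims2, E2f7 and Lag3. The checkpoint receptor gene Lag3 was at 1.38, 2.73, 1.67 and 1.76 CPM in sham KO, against 11.1, 2.57, 3.51 and 5.87 CPM in sham WT (log2 -1.61 ± 0.49). C1qtnf4, Rims2 and E2f7 had group means under 2.5 CPM in both groups.

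The difference between the ligated and the sham comparison was tested in the same model and gave 0 calls as well (0%; smallest adjusted p = 0.227, with 1952 genes at an unadjusted p under 0.05). DESeq2 called 93 genes higher and 53 lower for this difference. The 5 genes with the smallest p were Rpl35 (log2 1.91 ± 0.35), Ap1s2 (log2 -2.67 ± 0.52), Zfp940 (log2 -2.63 ± 0.51), Tomm7 (log2 1.41 ± 0.27) and Romo1 (log2 1.83 ± 0.36). Tomm7, a part of the mitochondrial import pore, was at 22.4, 20.3, 17.3 and 15.1 CPM in BDL KO, against 10.5, 9.83, 5.67 and 9.54 CPM in BDL WT. In sham liver it was at 14.1, 15.5, 15.9 and 13.4 CPM in sham KO, against 18.1, 18.7, 15.8 and 21.4 CPM in sham WT. Ap1s2, a subunit of the clathrin adaptor AP-1, was at 1.91, 5.14, 2.64 and 3.48 CPM in BDL KO, against 8.07, 9.89, 20.2 and 17.2 CPM in BDL WT. In sham liver it was at 2.096, 2.67, 3.53 and 1.95 CPM in sham KO, against 1.18, 1.73, 1.51 and 2.35 CPM in sham WT. Both passed in ligated liver with no overlap (log2 1.08 ± 0.20, adjusted p = 0.03705, and log2 -2.07 ± 0.36, adjusted p = 0.03705), as did the zinc finger gene Zfp940 (log2 -2.15 ± 0.38, adjusted p = 0.03705). By edgeR on all libraries no gene was thus shown to differ between the ligated and the sham comparison.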

How the data were processed

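RNA was extracted from mouse liver with an RNA mini kit (Qiagen), and libraries were made with the TruSeq RNA v2 kit, per the labels' protocols. That kit keeps no strand, so that reads of overlapping and antisense genes cannot be told apart. Per the submitters' processing notes, the tools were FastQC, Trim Galore, STAR and edgeR, with no version, and the builds were hg38 and mm10. The authors deposited raw read counts per gene for each library in STAR's layout, and the count that ignores strand was used. Symbols were found for 99.6% of 31053 gene IDs, and a row for the reporter EGFP was kept out of the tests. Reads of near-identical families such as the Mup genes may be split between copies.

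Low counts were removed with filterByExpr, which left 13492 genes, and edgeR 4.0.16 in R 4.3.3 fitted 1 term per group to the 16 liver libraries after TMM scaling. Levels on the log2 scale used a prior count of 2. Libraries held 14500094 to 23352846 reads in genes, and the SE given rests on the spread between libraries, pooled over ligated and sham liver. It was taken as the size of the log2 fold change over the square root of the test's F value. Alternatives were RLE factors, total counts, no filter, DESeq2 1.42.0, voom of limma 3.58.1 with sample weights, the replicate number as a block, the 2 ligated groups alone, and fits without single or paired libraries. The offset for GC content and length and the fits without a sham library were chosen after seeing the data. The edgeR, DESeq2 and voom fits were run on simulated counts in which each gene had the same spread in every group. Those counts cannot show how the fits behave where the spread differs between ligated and sham groups, as it did here. The limma fit was run on simulated levels with other group sizes than those of the injury sets.

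The libraries compared, the 47 gene lists and the tests were chosen with earlier results of these data known. The text names the TAM genes, the 10 largest falls and rises with groups that do not overlap and a mean of at least 10 CPM, the 5 smallest p of each test, list members with the smallest p, and genes that passed also without BDL KO 1 and BDL KO 3. Cell type markers and Cd14 were added after their values were seen. For the injury sets, FPKM values deposited by the authors for 6 ligated and 3 sham DMSO livers of the inhibitor experiment were compared with limma on log2(FPKM + 1), over 12353 genes that reached an FPKM of 1 in 3 or more livers. That scale understates the change of low genes. A few genes are not reported here. Promoter sequences came from RefSeq, build GRCm38.p6.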

Additional observations from a re-analysis of the deposited data

Results flagged for a closer look

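A library was marked where its gap to the nearest library of its group took most of the range of the 4, past Dixon's 95% limit. Chance marks about 1 in 20 groups where values are independent and normally spread. The genes looked at share the same libraries and were in part picked by their values in them. That rate is therefore no yardstick for the count that follows. Of 214 groups looked at, 30 held such a library, and BDL WT 3 was the library in 15 of them.

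BDL WT 3 stood above the other BDL WT libraries in genes of immune cells. They were Axl at 114 CPM, Ptprc at 80.9 CPM, Mpeg1 at 447 CPM, Adgre1 at 65.5 CPM, H2-Aa at 300.03 CPM and Cd74 at 994 CPM. It did so as well in interferon-induced genes, with Oas1a at 19.1 CPM, Oasl2 at 48.2 CPM, Gbp9 at 38.7 CPM, Trim30a at 53.9 CPM and Cxcl9 at 71.7 CPM. The remaining genes in which it stood apart were Slco1a1 at 25.9 CPM, Mup21 at 18.01 CPM, Casp12 at 32.5 CPM and Rgs5 at 109.6 CPM.

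BDL KO 3 stood above the other BDL KO libraries for Gas6 at 239 CPM, Rela at 355 CPM, Depp1 at 504 CPM, Jun at 240.5 CPM, S100a8 at 48.2 CPM and Cd14 at 4457 CPM, and below them for Crp at 80.1 CPM. BDL KO 1 stood below for Ifit1 at 0.616 CPM and Trim30a at 1.54 CPM, and above for Gm14327 at 3.57 CPM. BDL KO 2 stood above for Mpeg1 at 175 CPM, Tgfb2 at 5.26 CPM and Mfge8 at 117 CPM, and BDL KO 4 for Col4a5 at 7.42 CPM. In BDL WT, BDL WT 1 stood above for Dact2 at 22.2 CPM.

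The row for EGFP, a reporter that is not a mouse gene and that no comparison used, held 7 reads in BDL WT 3 and 67 reads in BDL WT 4, and 0 reads in the 14 other liver libraries. The labels name no reporter.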

How the results depend on the processing

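The number of genes called in ligated liver depended on the fit. Against 360 higher and 232 lower, RLE factors gave 373 and 223, no filter 208 and 114, DESeq2 1046 and 862, and the GC and length offset 246 and 73. Total counts, voom with sample weights, the 2 groups alone, and leaving out the libraries with a bad fastq file each gave 0 and 0. Without BDL KO 1 and BDL KO 3 the counts were 3 and 1, and without BDL KO 2 and BDL KO 4 they were 2215 and 2578. Leaving out 1 library gave 0 to 981 higher and 0 to 940 lower. The difference from sham had 0 calls, but DESeq2 gave 93 higher and 53 lower, leaving out BDL KO 2 and BDL KO 4 gave 1226 and 1576, and leaving out 1 library gave 0 to 38 and 0 to 16. Without BDL KO 2 it was 6 higher and 16 lower, and without BDL WT 1 it was 38 higher and 6 lower. The sham comparison gave 0 calls in every fit run. The cause of these shifts was not tested.

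The replicate block gave 154 higher and 85 lower, of which 229 were among the 592. Libraries with the same number had correlations of their deviations without a common sign. They were 0.27, 0.18, -0.08 and -0.30 in ligated liver and -0.01, -0.14, 0.16 and 0.16 in sham liver. Those of unlike numbers in ligated liver ranged from -0.48 to 0.43. So few correlations cannot show whether the numbers pair the libraries.

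The 69 genes named as called in ligated liver kept their direction in every fit that gave a value. Past the threshold were 69 with RLE factors, 58 with no filter, 67 with DESeq2, 36 with the block, 40 with the GC and length offset, 67 without BDL KO 2 and BDL KO 4, and 4 without BDL KO 1 and BDL KO 3. Leaving out BDL KO 2, BDL KO 4 or BDL WT 1 kept 69, 64 and 69, leaving out BDL KO 1 or BDL KO 3 kept 1 each, and the remaining fits kept 0. Of named genes that were not called, 33 passed with DESeq2. Uncalled genes turned negative in some fits. Without the libraries with a bad fastq file, and without BDL KO 1 and BDL KO 3, the log2 values were -0.76 and -0.76 for Tyro3, -0.21 and -0.21 for Gas6, -0.53 and -0.53 for Pros1, -0.37 and -0.36 for Fgb, -0.71 and -0.71 for Saa3, -0.11 and -0.11 for Itih4, -0.72 and -0.71 for S100a8, -0.13 and -0.13 for Fbp1, and -1.54 and -1.54 for Cd14. With voom they were -0.64 for Tyro3, -0.20 for Pros1, -0.55 for S100a8 and -0.72 for Cd14, and with total counts -0.37 for Tyro3 and -0.13 for Gas6. Leaving out 1 library gave -0.64 to 0.30 for Tyro3, -0.25 to 0.48 for Gas6, -0.75 to 1.63 for S100a8 and -0.99 to 3.40 for Cd14, lowest without BDL KO 3 in all 4; Tyro3 was also negative without BDL WT 4, at -0.09. Of 510 alternative values of 44 medians of lists and injury sets, 489 moved by less than the SD of the medians of the 4 BDL KO libraries and 21 by more. That SD includes BDL KO 1 and BDL KO 3, so a median could change sign and still count as moved by less. The neutrophil median did so, at 0.39 with these libraries and -0.77 without them. Without BDL KO 1 and BDL KO 3 the medians of NF-kB targets, p53 targets and transporters turned to -0.39, -0.37 and 0.31, and those of pancreas, kidney and adipose markers to 0.09, -0.08 and 0.53. Without BDL WT 3, bile acid synthesis turned to -0.01 and cytochrome P450 to -0.07. With 100 or 400 genes each way, the injury set medians were -0.39 and -0.60 for raised and -0.49 and -0.27 for lowered genes. Genes under 1 CPM rest on few reads at this depth.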

Other observations

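Of the lists outside the comparisons above, only that of complement genes held calls, beside 1.72% of all genes that fell. Of 24 complement genes 2 fell and 0 rose, C6, above, and C1s1, with a median log2 fold change of -0.30. C1s1, a protease of the first complement component that hepatocytes and fibroblasts make, was at 99.1, 277, 142 and 218 CPM in BDL KO, against 309, 351, 315 and 455 CPM in BDL WT (log2 -0.96 ± 0.25, adjusted p = 0.0447). Of 23 genes of cholesterol and fatty acid synthesis 0 were called, 20 of 23 log2 fold changes were positive, and the median was 0.53, or 0.95 without BDL KO 1 and BDL KO 3. Srebf2, the factor that switches on cholesterol synthesis, was at 175, 157, 152 and 146 CPM in BDL KO, against 148, 88.7, 62.5 and 46.04 CPM in BDL WT (adjusted p = 0.0823). Of 16 circadian clock genes 0 were called, with a median of 0.34, and -0.07 without BDL KO 1 and BDL KO 3. Nr1d1, the clock repressor REV-ERB alpha, was at 90.7, 14.8, 179.98 and 77.5 CPM in BDL KO, against 38.6, 16.1, 6.38 and 7.997 CPM in BDL WT (adjusted p = 0.0521), and the hour of collection is not in the labels. Of 26 cytochrome P450 genes 0 were called, with a median of 0.04, and Cyp4a14, a fatty acid hydroxylase under PPAR-alpha, was at 212, 29.01, 129 and 256 CPM in BDL KO, against 22.3, 33.7, 23.97 and 70.3 CPM in BDL WT (adjusted p = 0.0774).

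Other cell types gave 0 calls by edgeR's quasi-likelihood test in each list. The median was 0.04 over 22 genes of endothelium, -0.57 over 12 of mesothelium and portal fibroblasts, -1.11 over 7 of T and NK cells, -0.82 over 10 of B and plasma cells, and -0.46 over 7 of red cells and platelets. Without BDL KO 1 and BDL KO 3 the medians of B and plasma cells and of red cells and platelets were 0.07 and 0.36. Over 29 genes of the cell cycle the median was -0.73, or -0.03 without BDL WT 3. Bub1, a mitotic checkpoint kinase, was at 0, 0.122, 0 and 0.685 CPM in BDL KO, against 0.493, 0.601, 5.71 and 1.81 CPM in BDL WT (adjusted p = 0.0593). Of the markers of pancreas, gut and gallbladder, kidney, adipose tissue and muscle, 1, 3, 2, 3 and 1 were tested and 0 called, with medians of -0.20, 0.67, 0.21, -0.47 and 0.05.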
